A study of Mus musculus with 36 samples.

Results

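The comparison described here is of livers lacking the insulin receptor in hepatocytes with control livers at ZT12, the time at which the lights went off. Its members are the 12 arrays whose titles name this time, 6 of the knockout (IRhep-/-) and 6 of the control (IRhep+/+), of 36 arrays in the whole series. The other 24 arrays hold 6 knockouts and 6 controls at each of ZT8 and ZT16, and ZT0 was lights on. All mice were male C57BL/6J, aged 11 weeks, with free access to chow. The knockout carried loxP sites around the fourth exon of the insulin receptor gene, and the deletion was made with a tamoxifen-inducible Cre driven from the transthyretin (TTR) promoter, which is active in hepatocytes. The labels do not say when tamoxifen was given or whether the controls carried Cre or received tamoxifen, so the effects of Cre and tamoxifen cannot be told apart from that of the deletion in these arrays. One array was hybridised per mouse, from 200 ng of whole-liver RNA.

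Insulin acts on hepatocytes through its receptor, the IRS adaptor proteins, PI3-kinase and AKT. AKT keeps FoxO transcription factors out of the nucleus, which lowers genes of glucose production, and insulin also raises the lipogenic factor SREBP-1c. In mice that feed at night, lights off marks the start of the main feeding period.

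The promoters of 6 genes are shown first, as those of known targets of insulin action among the genes described below: Igfbp1, G6pc and Irs2, long used as markers of FoxO activity, Pck1, the rate-limiting enzyme of gluconeogenesis, and the lipogenic genes Thrsp and Fasn. Each run is the 250 bases before the transcription start of RefSeq's GRCm38.p6 annotation, read 5′ to 3′ on the gene's own strand. Capitals mark the FoxO-type motif CAAAACA, which reads TGTTTTG on the opposite strand, and the E-box CACGTG.
Igfbp1 (chr11:7197537-7197786, + strand): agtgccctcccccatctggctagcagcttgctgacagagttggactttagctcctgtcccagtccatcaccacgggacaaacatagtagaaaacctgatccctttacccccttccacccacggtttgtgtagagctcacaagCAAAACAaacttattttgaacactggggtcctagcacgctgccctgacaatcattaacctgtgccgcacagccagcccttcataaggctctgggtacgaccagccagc
G6pc (chr11:101367466-101367715, + strand): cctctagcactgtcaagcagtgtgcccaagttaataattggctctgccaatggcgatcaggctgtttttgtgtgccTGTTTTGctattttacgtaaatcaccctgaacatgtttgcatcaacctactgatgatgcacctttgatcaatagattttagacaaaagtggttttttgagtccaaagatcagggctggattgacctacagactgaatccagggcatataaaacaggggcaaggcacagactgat
Irs2 (chr8:11008930-11009179, - strand): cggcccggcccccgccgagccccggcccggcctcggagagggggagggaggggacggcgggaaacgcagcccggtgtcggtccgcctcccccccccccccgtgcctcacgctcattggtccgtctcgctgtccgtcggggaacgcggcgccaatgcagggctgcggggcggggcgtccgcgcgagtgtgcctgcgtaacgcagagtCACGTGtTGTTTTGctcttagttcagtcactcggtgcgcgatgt
Pck1 (chr2:173152823-173153072, + strand): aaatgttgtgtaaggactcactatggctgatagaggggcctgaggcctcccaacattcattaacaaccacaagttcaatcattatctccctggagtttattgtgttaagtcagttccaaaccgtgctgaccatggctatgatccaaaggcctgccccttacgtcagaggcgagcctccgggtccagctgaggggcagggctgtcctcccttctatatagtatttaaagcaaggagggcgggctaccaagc
Thrsp (chr7:97417551-97417800, - strand): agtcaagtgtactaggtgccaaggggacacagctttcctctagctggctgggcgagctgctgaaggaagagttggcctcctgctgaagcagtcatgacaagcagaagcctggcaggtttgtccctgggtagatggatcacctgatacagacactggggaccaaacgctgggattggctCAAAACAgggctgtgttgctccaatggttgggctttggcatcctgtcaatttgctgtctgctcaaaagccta
Fasn (chr11:120824548-120824797, - strand): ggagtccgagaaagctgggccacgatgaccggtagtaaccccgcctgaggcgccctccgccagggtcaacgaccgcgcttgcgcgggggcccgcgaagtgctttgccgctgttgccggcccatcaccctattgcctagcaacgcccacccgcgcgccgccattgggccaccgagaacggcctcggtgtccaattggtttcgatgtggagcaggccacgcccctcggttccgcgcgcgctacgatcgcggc
Counted from the start, the CAAAACA motif began at -108 in Igfbp1 and -72 in Thrsp. On the opposite strand it began at -174 in G6pc and -37 in Irs2, where CACGTG began at -44. No capitals appear in the Pck1 and Fasn runs because neither motif was in these letters. Such matches are common and describe sequence only: CAAAACA was found on either strand in 5.55% of all 27025 promoters of this length and in 4.22% of the 13241 tested genes that have one. Its share was 4.35% of 2806 matched genes that were higher in knockouts and 3.92% of 3345 that were lower. CACGTG was found in 6.05% of all promoters, 7.74% of those of tested genes, 8.09% of the higher and 8.43% of the lower genes.

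Signals are given as log2 units relative to the array's own 75th percentile of probe signal, so that 0 is that percentile. The ratio is the knockout minus the control in a limma fit over all 36 arrays with 6 group means and the wash batch, and a gene is called where its Benjamini-Hochberg adjusted p over all genes is under 0.05. Hepatocyte transcripts such as albumin (Alb, 9.92 to 10.25 in knockouts) were abundant on every array. The 75th percentile itself was 394 to 526 units of processed signal in the knockouts and 343 to 390 in the controls, without overlap, so array brightness moved with genotype, and its part in the ratios was not tested. The first principal component, with 47.2% of the variance, separated the genotypes. The second, with 11.0%, separated knockouts 1 and 6 (31.7 and 51.2) from the other 4 knockouts (-42.3 to -9.04). Some results are therefore given with and without these livers, but not all. Fitting without both also called fewer genes in all, 8432 against 9680.

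The receptor transcript was lower in every knockout liver. The Insr probe with the brighter signal, A_55_P2173927 (mm9 chromosome 8, 3155472 to 3155531), read from -3.95 to -3.29 in knockouts, with a median of -3.44. Controls ran from -1.86 to -1.44, with a median of -1.58. The groups did not overlap, and the ratio was -1.88 (SE 0.13, limma adjusted p = 2.15e-12), or 27.2% of the control level. That size depended on the processing: it was -1.02 with normexp background and -1.26 in the authors' deposited normalization. The residual level is therefore not fixed by these data. A second Insr probe, at 3159473 to 3159532 on the same chromosome, differed by -1.48 and was well above background in 1 of 6 knockouts. Neither probe is known here to lie in the deleted exon, so they check the direction of the labels and not the completeness of the deletion. Within the 3 wash batches the Insr ratio was -1.78, -1.92 and -1.98.

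Of 22877 genes tested, 9680 (42.3%) were called. In the knockouts 4495 genes (19.6%) were higher and 5185 (22.7%) lower. Most of these changes were modest: the median size of a called ratio was 0.54, the median ratio over all genes was -0.02, and the middle 50% of genes lay between -0.29 and 0.29. At least 2-fold changes numbered 842 up and 821 down, and at least 8-fold changes 42 up and 58 down. For 4887 genes (21.4%) the 6 knockouts and 6 controls did not overlap, 1917 of them higher and 2970 lower in knockouts. These shares are the background against which the counts of each gene group below are read. Brighter genes were called more often: with probes above background on all 36 arrays, 8809 of 17788 genes were called, 3986 higher and 4823 lower. Most lists below hold mainly such genes, so a list slightly above 42.3% called does not stand out.

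**Figure D1:**
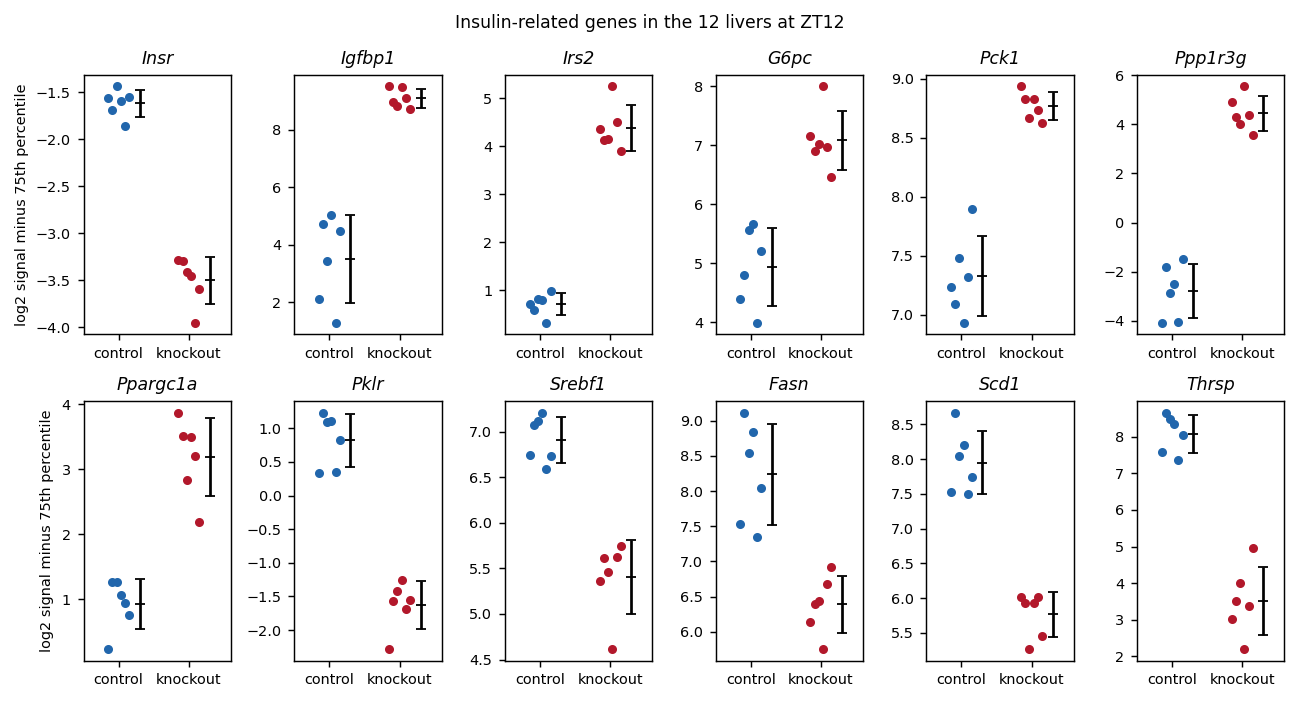
Level of 12 genes of insulin action in each liver at ZT12, in log2 units relative to the array's 75th percentile. Each dot is a liver and each bar the mean ± SD of 6. Igfbp1, Irs2, G6pc, Pck1, Ppp1r3g and Ppargc1a sit higher in every knockout than in any control, and Insr, Pklr, Srebf1, Fasn, Scd1 and Thrsp lower.

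The largest rise among genes detected in all 12 livers was that of Gpx3, which encodes the secreted glutathione peroxidase of plasma. Its probe (mm9 chromosome 11, 54723436 to 54723495) read -3.18 to -2.26 in controls (median -2.75) and 5.46 to 6.72 in knockouts (median 6.11). The ratio of 8.87 (SE 0.23, limma adjusted p = 8.83e-23) corresponds to 469-fold. Ppp1r3g, a glycogen-targeting subunit of protein phosphatase 1, came next. Controls spanned -4.07 to -1.48 (median -2.68) and knockouts 3.55 to 5.54 (median 4.33), a ratio of 7.29 (SE 0.43, limma adjusted p = 4.35e-14). Igfbp1, the insulin-repressed binding protein for insulin-like growth factors, ran from 1.30 to 5.03 in controls (median 3.96) and from 8.70 to 9.50 in knockouts (median 9.02). The controls spread more widely than the knockouts, and the ratio was 5.60 (SE 0.47, limma adjusted p = 1.1e-10). Within the wash batches the Igfbp1 ratio was 5.59, 6.80 and 4.10. None of the 3 genes had a knockout within the range of the controls.

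The other members of the 12 largest rises fell into several kinds. Ntf3, the growth factor neurotrophin-3, went from a median of -3.14 in controls to 1.55 in knockouts (ratio 4.75, limma adjusted p = 1.17e-14). Slc22a26, an organic anion transporter of the liver, had a ratio of 4.48, the tubulin gene Tuba8 3.80, and the keratin gene Krt23 3.46. Tango6 (3.29), 3930402G23Rik (3.21), and Vpreb3 (3.21), a chaperone of the pre-B-cell receptor in B cells, completed the genes of less certain hepatic role. Irs2, the insulin receptor substrate that couples the receptor to PI3-kinase, ran from 3.90 to 5.25 in knockouts (median 4.26) and 0.32 to 0.98 in controls (median 0.76). Its ratio was 3.65 (SE 0.29, limma adjusted p = 4.26e-11). Egr1, an immediate early transcription factor, had a ratio of 3.19 (limma adjusted p = 4.61e-06) with wide ranges of 0.82 to 4.02 in knockouts and -2.01 to 0.31 in controls that did not overlap.

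Among the largest falls were those of the N-acetyltransferase-like genes Nat8f5 and Nat8. Nat8f5 read 4.23 to 4.88 in controls (median 4.67) and -2.62 to -1.20 in knockouts (median -2.14), a ratio of -6.55 (SE 0.27, limma adjusted p = 1.62e-17). Nat8 read 4.55 to 5.19 in controls (median 4.76) and -0.74 to -0.08 in knockouts (median -0.56), a ratio of -5.29 (SE 0.21, limma adjusted p = 3.98e-18). Neither gene overlapped between groups. They are neighbouring members of a cluster of similar genes on chromosome 6, so their probes may not be fully distinct. Myom2, which encodes a sarcomeric protein, fell by 5.53 on the log2 scale.

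Inhbe, the activin subunit made mainly by liver, read 2.21 to 3.21 in controls (median 2.81) and -2.80 to -1.53 in knockouts (median -2.39), a ratio of -5.00 (limma adjusted p = 4.85e-14). Leap2, the liver peptide that antagonises the ghrelin receptor, read 4.74 to 5.70 in controls (median 5.04) and -0.21 to 0.85 in knockouts (median 0.38). Its ratio was -4.77 (SE 0.17, limma adjusted p = 7.98e-19), and no knockout came near the controls. Other members of the 12 largest falls were Thrsp (-4.46), Pnpla3 (-4.45), Pnpla5 (-4.35), the water channel Aqp8 (-3.96), the carbonic anhydrase Car3 (-3.92) and G0s2 (-3.90), an inhibitor of the lipase ATGL. Pnpla3 and Pnpla5 spread widely among controls, from 0.35 to 3.15 and from -1.10 to 3.27.

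A further 25 genes with a RefSeq symbol were called and well above background in all 6 knockouts and in no control, so only a lower bound of the change can be given. The bound sets the knockout mean against the lowest signal well above background on the control arrays, or the gene's own signal where that is higher. Defb1, an antimicrobial beta-defensin, was at least 8.14-fold higher, 5730420D15Rik at least 5.86-fold, Il20 at least 4.44-fold, Ntf5 at least 4.36-fold, the protease gene Tmprss7 at least 4.07-fold and the Wnt modulator Sfrp4 at least 3.84-fold. In the other direction 17 such genes were detected in all controls and in no knockout. Nat8f6, of the same cluster as Nat8, was at least 9.47-fold lower, the anion exchanger Slc26a4 at least 4.70-fold, 4933438K21Rik at least 4.15-fold, the potassium channel Kcnk10 at least 3.75-fold, and Cphx1 and Gm12718 each at least 3.47-fold.

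Among the genes of insulin receptor signalling, 10 of 31 were higher and 10 lower, with a median of 0.05. The substrate Irs1 read 0.05 (limma adjusted p = 0.832) where Irs2 rose by 3.65. The rises also held Trib3, an AKT-binding pseudokinase (1.86), Rictor, the defining subunit of mTORC2 (0.88), the receptor Igf1r (0.59) and Akt1 (0.30). Lower were the PI3-kinase regulatory subunit Pik3r1 (-1.22), Foxo4 (-1.03) and the receptor-binding adaptor Grb14 (-0.88). Foxo1 at -0.24 and Akt2 at -0.08 were not called.

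Of 20 genes that FoxO factors are known to induce, 12 rose and 3 fell, with a median of 0.56, against 19.6% and 22.7% of all genes. Besides Igfbp1 and Irs2 they included Ppargc1a, the coactivator PGC-1alpha, which read 0.23 to 1.26 in controls (median 1.00) and 2.19 to 3.87 in knockouts (median 3.36). Its ratio was 2.20 (SE 0.19, limma adjusted p = 1.91e-10). The ubiquitin ligase gene Fbxo32 (1.19), Sesn1 (0.64), Sesn3 (0.52), Ccng2 (0.51) and the cell cycle inhibitor Cdkn1b (0.45) also rose. Pdk4, which restrains pyruvate oxidation, read 0.66 and Txnip 0.61, and neither was called (limma adjusted p = 0.248 and 0.0842). Txnip was called higher with quantile normalization (0.70), in the authors' deposited normalization (0.74), with array weights (0.64) and when only ZT12 arrays were fitted (0.64). The 3 falls were Insr itself, the growth arrest gene Gadd45a (-2.33) and Cited2 (-0.38).

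Gluconeogenic genes split: 8 of 19 were higher and 5 lower, with a median of -0.01. G6pc, the catalytic subunit of glucose-6-phosphatase, read 3.99 to 5.66 in controls (median 5.004) and 6.46 to 8.00 in knockouts (median 6.99). The ratio was 2.14 (SE 0.32, limma adjusted p = 3.07e-06), with no overlap. Pck1 was tighter in the knockouts, from 8.62 to 8.93 (median 8.78), than in the controls, from 6.93 to 7.90 (median 7.27), and rose by 1.42 (limma adjusted p = 9.53e-08). Rises also occurred in the transaminase Got1 (2.03), the lactate dehydrogenase subunit Ldhb (1.88), the serine dehydratase Sds (1.28), the mitochondrial Pck2 (0.81) and Fbp1 (0.28). The transaminases Got2 (-0.62), Gpt (-0.56) and Gpt2 (-0.39) and the glycerol-handling enzymes Gpd1 (-1.07) and Gk (-0.35) fell, and Pcx, the pyruvate carboxylase, stood at -0.01.

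In glycolysis 5 of 31 genes were higher and 12 lower, with a median of -0.01. The falls included liver-type enzymes of sugar use. The liver pyruvate kinase Pklr went from 0.34 to 1.23 in controls (median 0.96) to -2.28 to -1.25 in knockouts (median -1.56). Its ratio was -2.42 (SE 0.24, limma adjusted p = 2.73e-09), without overlap. The fructose-handling ketohexokinase Khk (-1.19), Tkfc (-1.16) and the glucose transporter Slc2a2 (-0.54) were lower too. The rises were in isoforms typical of other tissues, namely Pfkp (1.67), Aldoa (0.89), Hk2 (0.85) and Eno3 (0.33), and in Pfkfb4 (0.51).

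Of 22 glycogen genes 10 were lower and 4 higher, with a median of -0.20. Among the subunits that bring protein phosphatase 1 to glycogen the members went apart: Ppp1r3g rose by 7.29 and Ppp1r3b by 0.53, while Ppp1r3e fell by 0.50 and Ppp1r3c by 0.97. Ppp1r3c overlapped between groups, from 0.11 to 1.47 in knockouts and -0.005 to 2.56 in controls (limma adjusted p = 0.0152), and its call was lost without control 3 (ratio -0.74), without knockouts 1 and 6 (-0.85) and when only ZT12 arrays were fitted (-0.97). The synthase Gys2 (0.26) was not called. It was called without knockout 6 (0.35), with array weights (0.27) and in the authors' deposited normalization (0.28). The brain-type phosphorylase Pygb rose by 1.34, and the liver phosphorylase Pygl (-0.68), the branching enzyme Gbe1 (-0.69) and Pgm1 (-0.63) fell.

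In fatty acid synthesis 18 of 24 genes fell and 1, Elovl2 (0.35), rose. The median of -0.89 was the lowest of the 40 lists after that of the male-biased genes. Srebf1, which encodes SREBP-1, read 6.60 to 7.21 in controls (median 6.91) and 4.62 to 5.75 in knockouts (median 5.54), a ratio of -1.48 (limma adjusted p = 1.96e-07). Fasn, the fatty acid synthase, read 7.34 to 9.11 in controls (median 8.30) and 5.76 to 6.92 in knockouts (median 6.42), a ratio of -1.77 (limma adjusted p = 9.66e-07). Scd1, the stearoyl-CoA desaturase, read 7.49 to 8.67 in controls (median 7.89) and 5.27 to 6.02 in knockouts (median 5.93), a ratio of -2.16 (limma adjusted p = 4.57e-09). All 3 genes were lower in every knockout than in any control.

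The largest falls of the group were those of the elongase Elovl3 (-7.24), which also belongs to the male-biased genes below, and of Thrsp, a lipogenic regulator (-4.46). Controls of Thrsp read 7.36 to 8.66 (median 8.20) and knockouts 2.20 to 4.97 (median 3.44). Enzymes that supply acetyl-CoA and reducing power fell as well: Me1 by 2.29, Acss2 by 1.88, Acly by 1.47 and the citrate carrier Slc25a1 by 0.90. The carboxylases Acacb and Acaca fell by 1.17 and 0.75. Mlxipl, which encodes the carbohydrate-responsive factor ChREBP, read -0.17 and was not called (limma adjusted p = 0.395), and the desaturases Fads1 (-0.07) and Fads2 (-0.05) were not called either.

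Genes of triglyceride synthesis and lipid droplets showed 14 of 31 lower and 2 higher, with a median of -0.49. Falls included the acyltransferases Gpam (-1.97), Dgat2 (-1.25), Agpat2 (-1.06) and Mogat1 (-1.31), and the droplet proteins Fitm1 (-3.56), Cidec (-0.99) and Plin2 (-0.81). Pnpla2, the lipase ATGL that G0s2 inhibits, rose by 1.21 (limma adjusted p = 3.82e-09), from 3.21 to 3.47 in controls (median 3.40) to 4.13 to 4.89 in knockouts (median 4.65). Lpin1 read 0.52 and Dgat1 0.06, neither called.

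For cholesterol, 16 of 26 genes fell and 1, the SREBP escort gene Scap (0.32), rose, with a median of -0.50. Fdps (-1.53), Mvd (-1.42), the SREBP anchor Insig1 (-1.41), Tm7sf2 (-1.26) and Sqle (-1.20) fell most. Cyp51 (-0.50) and Idi1 (-0.45) were not called.

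**Figure D2:**
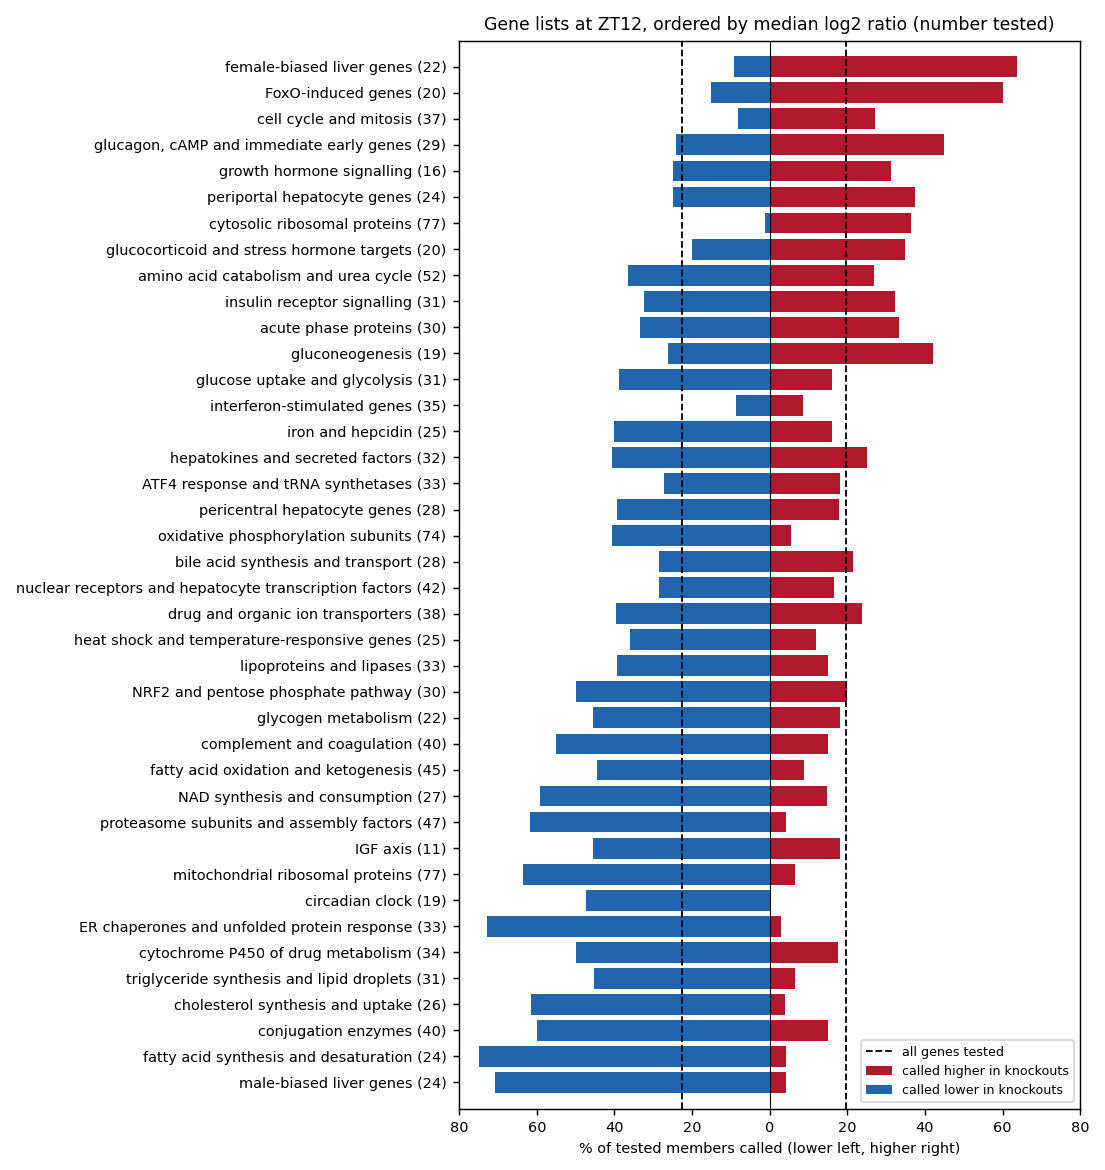
Percent of the tested members of each of 40 gene lists that were called higher (right) or lower (left) in knockouts at ZT12, with lists ordered by median log2 ratio. Dashed lines mark the shares over all genes, 19.6% higher and 22.7% lower. Fatty acid synthesis, male-biased genes and the endoplasmic reticulum list reach farthest to the left, and female-biased and FoxO-induced genes farthest to the right.

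Lipoprotein genes were lower in 13 of 33 cases and higher in 5, with a median of -0.19. Lpl, the lipoprotein lipase, which adult hepatocytes express little of, rose by 2.61 (SE 0.26, limma adjusted p = 3.69e-09), from -0.94 to 1.28 in controls (median 0.29) to 2.47 to 3.66 in knockouts (median 2.74). The transporter Abcg1 (1.67), Apom (1.24) and the HDL receptor Scarb1 (0.87) rose with it. The feeding-induced lipase inhibitor Angptl8 read 5.25 to 7.10 in controls (median 6.999) and 3.74 to 4.79 in knockouts (median 4.10), a ratio of -2.48 (limma adjusted p = 1.33e-06). Lipg (-1.67) and Pltp (-1.30) were lower too, and Angptl4 (0.16) and Apoa4 (-0.30) were not called.

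Of the bile acid genes 6 of 28 rose and 8 fell, with a median of -0.16. The synthetic enzymes Cyp7a1 (0.08, limma adjusted p = 0.876) and Cyp8b1 (0.32, limma adjusted p = 0.391) were not called, and both overlapped between groups. The bile acid receptor Nr1h4 fell by 1.22 (limma adjusted p = 1.66e-08), and the basolateral exporters Abcc4 (1.63), Slc51b (1.35) and Abcc3 (0.49) rose.

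Fatty acid oxidation genes were lower in 20 of 45 cases and higher in 4, with a median of -0.25. Ppara, the receptor that induces them, fell by 0.93 (limma adjusted p = 6.07e-06), from a median of 6.13 to 5.20, and its partner Creb3l3 by 0.97. Pex11a (-1.47), Acsl1 (-0.82), Fabp1 (-0.77), Slc25a20 (-0.72) and Cpt2 (-0.68) were lower. Cpt1a, which controls entry of fatty acids to mitochondria, rose by 0.47 (limma adjusted p = 0.00451), and Cyp4a10 by 1.87. Fgf21, a target of PPARalpha secreted by the liver, fell by 2.60 (limma adjusted p = 0.000169). Its signal passed background in 3 of 6 knockouts and in all 6 controls.

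Among 32 secreted hepatic factors 8 were higher and 13 lower, with a median of -0.06. Beside Igfbp1, Ntf3, Leap2 and Inhbe, the activin antagonist Fst (2.98), the stress cytokine Gdf15 (2.32), Enho (1.45) and Hgf (0.72) rose, and the activin subunits Inhbc (-2.30) and Inhba (-1.94) and the secreted Tsku (-1.87) and Lect2 (-1.55) fell. Lect2 controls read 5.47 to 6.05 (median 5.80) and knockouts 3.85 to 4.40 (median 4.29). Inhbb, another activin subunit, rose by 0.91.

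The growth hormone and IGF genes combined opposite members. Ghr, the growth hormone receptor, was among the most precisely measured falls, from 5.76 to 6.02 in controls (median 5.92) to 4.25 to 4.55 in knockouts (median 4.39). The ratio was -1.53 (SE 0.07, limma adjusted p = 3.44e-16), and all 4 Ghr probes fell, by 1.28 or more. Igfals, the acid-labile subunit that stabilises circulating IGF, fell by 1.82 and Igf1 by 0.31. The Igf1 call was lost when all probes of the gene were averaged (ratio -0.57, limma adjusted p = 0.201). Igfbp2, another IGF binding protein, rose by 2.83 (limma adjusted p = 1.05e-14), from 4.75 to 6.13 in controls (median 5.60) to 7.90 to 8.67 in knockouts (median 8.47).

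Socs2, a feedback inhibitor of the growth hormone receptor, rose by 2.93 (SE 0.47, limma adjusted p = 9.83e-06), from -0.93 to 2.44 in controls (median 1.05) to 3.34 to 4.83 in knockouts (median 4.00). Cux2, a female-biased transcriptional repressor, rose by 4.96, from -4.93 to -4.11 in controls (median -4.48) to -0.18 to 1.09 in knockouts (median 0.44). It was well above background in 5 of 6 controls. Stat5b (0.47), Jak2 (0.27) and Socs3 rose, the prolactin receptor Prlr fell by 0.72, and Lifr (0.31) was not called, although 2 of its 3 probes were higher and the mean of the probes was called (0.64, limma adjusted p = 0.00556). In all, 5 of 16 growth hormone genes were higher and 4 lower, with a median of 0.23 (0.04 without knockout 6 and 0.11 without control 2), and of 11 IGF genes 2 were higher and 5 lower.

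Mouse liver expresses sets of genes differently in males and females, a pattern that follows the sex-specific rhythm of growth hormone. In these males, 17 of 24 male-biased genes were lower in knockouts and 1 higher, with a median of -1.90. Of 22 female-biased genes, 14 were higher and 2 lower, with a median of 1.26. With probes above background on all 36 arrays, the male-biased median was -0.97 over 18 genes and the female-biased median 0.42 over 16, and with normexp background the latter was 0.60. Over each liver's own list, the median level of the male-biased genes was 3.07 to 3.92 in knockouts and 4.43 to 5.84 in controls. The median of the female-biased genes was 2.50 to 2.91 in knockouts and 0.50 to 0.86 in 5 controls, but 2.19 in control 2, which also had the lowest male-biased median. Without control 2 the female-biased list stood at 14 higher and 1 lower (median 1.43) and the male-biased list at 1 higher and 19 lower.

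The largest male-biased fall was that of Hsd3b5, a steroid dehydrogenase (-8.77), followed by the omega-hydroxylases Cyp4a12b (-8.27) and Cyp4a12a (-8.00). These 3 genes and Elovl3 were well above background in 4 of 6 knockouts. Cyp4a12a and Cyp4a12b are close paralogues, so their probes may share transcript. Controls of Cyp4a12a read 2.85 to 4.46 (median 3.41) and knockouts -5.86 to -2.65 (median -4.59). The organic anion transporter Slco1a1 fell by 3.31, Mup3 by 2.47 and Cyp2d9 by 2.47, and the urinary protein genes Mup1 (-0.65), Mup20 (-0.93) and Mup21 (-0.67), which share long stretches of sequence, were not called. Cyp2u1 (0.78) was the member that rose.

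Among female-biased genes, the transporter Slc22a26 read -3.66 to 0.95 in controls (median -1.91), with control 2 at the top, and 1.79 to 3.49 in knockouts (median 2.63). The ratio was 4.48 (SE 0.51, limma adjusted p = 3.11e-08), and the groups did not overlap. Cyp3a44 (5.83), the sulfotransferase Sult3a1 (2.78), Cyp2b10 (2.61), Cyp2b13 (2.00), Cyp2b9 (1.89) and Fmo2 (1.81) also rose. Control 2 stood apart from the other controls at Cyp2b9 (4.97 against 0.96 to 2.26), Cyp2b10 (4.66 against 0.74 to 2.56) and Sult3a1 (-1.28 against -7.01 to -6.12). Cyp2a4 (-0.76) and Gstt3 (-0.60) fell, and Cyp3a16 (0.28) and Cyp3a41a (0.07) were not called.

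**Figure D3:**
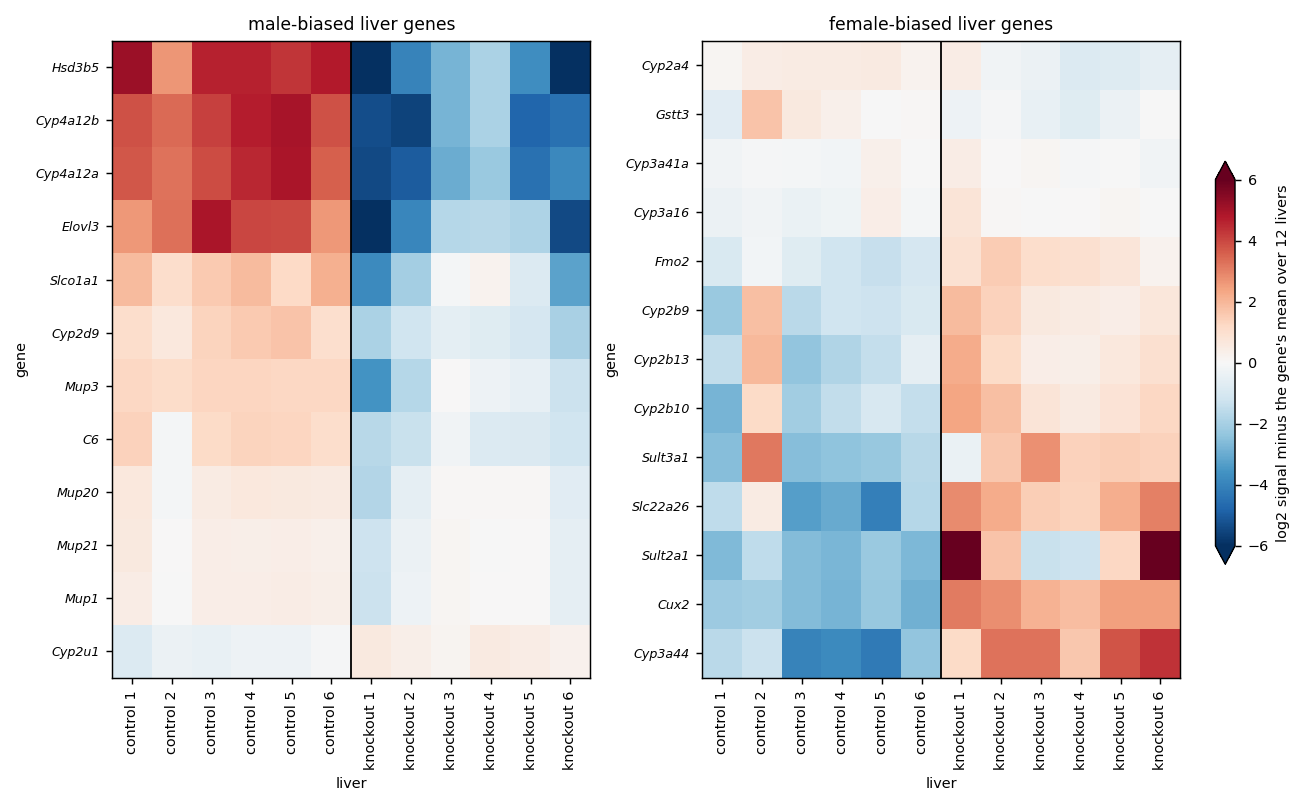
Sex-biased liver genes named in the text, other than Alas2 and Cyp8b1, in each of the 12 livers at ZT12. Values are log2 level minus the gene's mean over the 12 livers. Male-biased genes are lower and female-biased genes higher in most knockouts, and control 2 is above the other controls at several female-biased genes, such as Cyp2b9 and Sult3a1, with a median of 2.19 over the whole list.

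Knockouts 1 and 6 differed from the other 4 in a set of genes chosen after their values were seen, so no test is given. Both lay more than 1 log2 unit above the other 4 for 69 genes and below them for 16. Sult2a1, a steroid sulfotransferase, read 2.48 and 2.40 in knockouts 1 and 6, -5.94 to -2.87 in the others and -7.34 to -6.09 in controls. Sult2a2 showed the same order, with 4.46 and 4.58 in these 2 livers and -4.07 to -0.12 in the others, and the near-identical copies in this family make each value uncertain. Below the others were Hsd3b5 (-6.34 and -5.99 against -3.36 to -1.26), Elovl3 (-7.06 and -5.69 against -4.18 to -1.92) and Slco1a1. Without both livers 8432 genes were called, 4042 higher and 4390 lower, and the female-biased list kept 12 higher and 1 lower and the male-biased list 1 higher and 16 lower.

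In the clock list of 19 genes none rose and 9 fell, with a median of -0.32. Without knockouts 1 and 6 the counts were 0 higher and 6 lower. The core activator Arntl (0.49, limma adjusted p = 0.244), Clock (0.01), Per1 (0.02) and the repressor Nr1d1 (-0.43, limma adjusted p = 0.171) were not called. Nr1d1 was called without control 3 (-0.62) and with normexp background (-0.30). Outputs and feedback genes were lower: the repressor Ciart went from -1.81 to -0.14 in controls (median -0.70) to -4.59 to -3.46 in knockouts (median -3.66), a ratio of -2.93 (limma adjusted p = 4.27e-09). Hlf (-1.05), Per2 (-0.90, limma adjusted p = 2.48e-05), Usp2 (-0.88), Per3 (-0.78), Bhlhe40 (-0.75) and Dbp (-0.72) fell as well. Per2 read 3.00 to 3.28 in controls (median 3.12) and 1.90 to 2.51 in knockouts (median 2.14). The Dbp call (limma adjusted p = 0.0159) was lost without control 6 (ratio -0.55, limma adjusted p = 0.0553), without knockouts 1 and 6 and when only ZT12 arrays were fitted.

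Genes induced by glucagon, cAMP or other immediate early signals were higher in 13 of 29 cases and lower in 7, with a median of 0.34. Besides Egr1, the nuclear receptors Nr4a1 (2.89) and Nr4a2 (1.46), Fos (1.83), Junb (1.47), Sik1 (1.35) and the cAMP-responsive repressor Crem (1.31, limma adjusted p = 3.07e-07) rose. Crem read -0.03 to 0.26 in controls (median 0.08) and 1.06 to 2.01 in knockouts (median 1.38). Signalling components went both ways. The adenylyl cyclases Adcy9 (0.73) and Adcy6 (0.34), the regulatory subunit Prkar1a (0.36) and the coactivator Crtc2 (0.32) rose. Lower were the glucagon receptor Gcgr (-0.46), Gnas (-0.43), the kinase subunits Prkaca (-0.35) and Prkacb (-0.23), and the insulin-activated phosphodiesterase Pde3b (-0.52). Jun (-0.09) and Fosb (0.02) were not called.

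Of 20 glucocorticoid and stress hormone targets 7 rose and 4 fell, with a median of 0.17. The median was 0.33 without knockout 6, and within the wash batches 0.28, 0.45 and -0.48. The metallothioneins Mt2 (3.19) and Mt1 (2.60, limma adjusted p = 2.54e-07), which bind zinc and copper, Gadd45b (2.36) and the kinase Sgk1 (2.12) rose most. Mt1 read 4.23 to 6.01 in controls (median 5.06) and 7.01 to 8.51 in knockouts (median 7.58). Among other targets on the list, Fkbp5 (-0.29), Per1 (0.02) and Dusp1 (-0.69) were not called, and Tsc22d3 (-0.85), the receptor Nr3c1 (-0.56) and the cortisone reductase Hsd11b1 (-0.93) were lower.

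Drug-metabolising genes were mainly lower. Among cytochromes P450, 17 of 34 fell and 6 rose (median -0.46), including Cyp2f2 (-2.20), Cyp2a22 (-1.87), Cyp2a12 (-1.62), Cyp1a2 (-1.50) and Cyp2j5 (-1.25), while Cyp2c39 (1.49) and the reductase Por (0.86) rose and Cyp3a11 (0.18) and Cyp2e1 (-0.20) were not called. Conjugation enzymes fell in 24 of 40 cases and rose in 6 (median -0.51). Gstm6 (-1.48), Ugt2b1 (-1.27), Tpmt (-1.25) and the UDP-glucose dehydrogenase Ugdh (-1.21) were lower, and the nicotinamide methyltransferase Nnmt (1.15) higher. Glutathione transferases, UGTs and the Cyp2 families hold similar copies that array probes may not fully separate.

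Transporters of drugs and organic ions were lower in 15 of 38 cases and higher in 9, with a median of -0.17. Slc10a2, the apical sodium-dependent bile acid transporter, fell by 2.45 (limma adjusted p = 3.06e-12), from 3.78 to 4.37 in controls (median 3.96) to 1.22 to 1.78 in knockouts (median 1.57). Slco2b1 (-1.93), Abcg2 (-1.78) and Slc17a3 (-1.66) were lower and Slco1a4 (1.505) higher. Slco2b1 has another probe that was higher in knockouts (1.29), and its call was lost when probes were averaged. Among 30 genes of the NRF2 response and pentose phosphate pathway 6 rose, Gpx3 among them, and 15 fell, with a median of -0.20. Catalase (Cat, -1.11), Gclc (-1.11), Ephx1 (-1.23) and the pentose phosphate enzymes Pgd (-0.82), Tkt (-0.70) and Taldo1 (-0.67) were lower, and Nqo1 (-0.17) was not called.

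Amino acid genes divided, with 14 of 52 higher and 19 lower (median 0.07). Acmsd, which diverts tryptophan breakdown from NAD synthesis, rose by 2.49 (limma adjusted p = 2.09e-09), from a median of -0.12 to 2.12. Slc7a2 (1.24), Cth (0.82), Hal (0.69) and Tat (0.55) rose, and Bhmt (-1.94), Prodh (-1.33), Tdo2 (-0.81) and Glud1 (-0.74) fell. The urea cycle enzymes Cps1 (0.36), Ass1 (0.21), Asl (0.20) and Otc (-0.18) were not called, and Arg1 fell by 0.48. NAD genes were lower in 16 of 27 cases and higher in 4 (median -0.25), with falls of the kynurenine enzymes Haao (-1.05), Qprt (-0.68) and Kmo (-0.45), while Nampt (-0.13) was not called.

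In the endoplasmic reticulum list 24 of 33 genes fell and 1, the stress sensor Ern1 (0.42), rose, with a median of -0.41. Derl2, a channel component of the degradation route, read 6.18 to 6.33 in controls (median 6.26) and 4.96 to 5.27 in knockouts (median 5.18), a ratio of -1.11 (SE 0.07, limma adjusted p = 6.26e-14). Its relative Derl3 fell by 2.29, Sdf2l1 by 1.21, Herpud1 by 1.02, the chaperone Calr by 1.01 and Hspa5, the luminal chaperone BiP, by 0.53. Xbp1 (0.13) and Atf6 (0.10), which drive the unfolded protein response, were not called.

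Proteasome genes fell in 29 of 47 cases and rose in 2 (median -0.26), with ratios of the lower genes between -0.67 and -0.17, as with Psmb7 (-0.67), Psmd14 (-0.64) and Psmb5 (-0.45). Psme3, which encodes the nuclear PA28gamma cap, rose by 1.40 (limma adjusted p = 1.1e-08), but its other probe fell by 0.46, so the direction of Psme3 rests on the choice of probe. Mitochondrial ribosomal proteins fell in 49 of 77 cases and rose in 5 (median -0.26), led by Mrpl27 (-0.68), Mrps17 (-0.65) and Mrps7 (-0.64). Subunits of oxidative phosphorylation fell in 30 of 74 cases and rose in 4 (median -0.14), and 49 fell under quantile normalization. The cytosolic ribosomal proteins moved the other way, with 28 of 77 higher and 1 lower (median 0.19, but -0.24 within the third wash batch, whose only ZT12 knockout is knockout 6). Rpl12 (0.51) and Rps12 (0.48) rose most, and Rps27l (-0.48) fell.

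The count of ribosomal proteins depended on single livers and on scaling. It was 56 higher and 1 lower (median 0.30) without knockout 6, 57 and 1 (median 0.35) without knockouts 1 and 6, and 51 and 1 in the authors' deposited normalization, while 19 were called when only ZT12 arrays were fitted. Heat shock genes were lower in 9 of 25 cases and higher in 3 (median -0.18). Fkbp4 (-0.62), Dnaja1 (-0.56) and Hsp90aa1 (-0.46) fell and Hspb1 rose by 1.00, and without knockouts 1 and 6 the counts were 2 lower and 4 higher. Of 33 genes of the ATF4 response and tRNA synthetases 6 rose and 9 fell (median -0.07). Trib3 (1.86), Phgdh (0.97) and Ppp1r15a (0.89) were higher, Psat1 (-1.02) and Shmt2 (-0.60) lower, and Atf4 (0.05), Asns (0.67) and Ddit3 (-0.28) were not called.

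**Figure D4:**
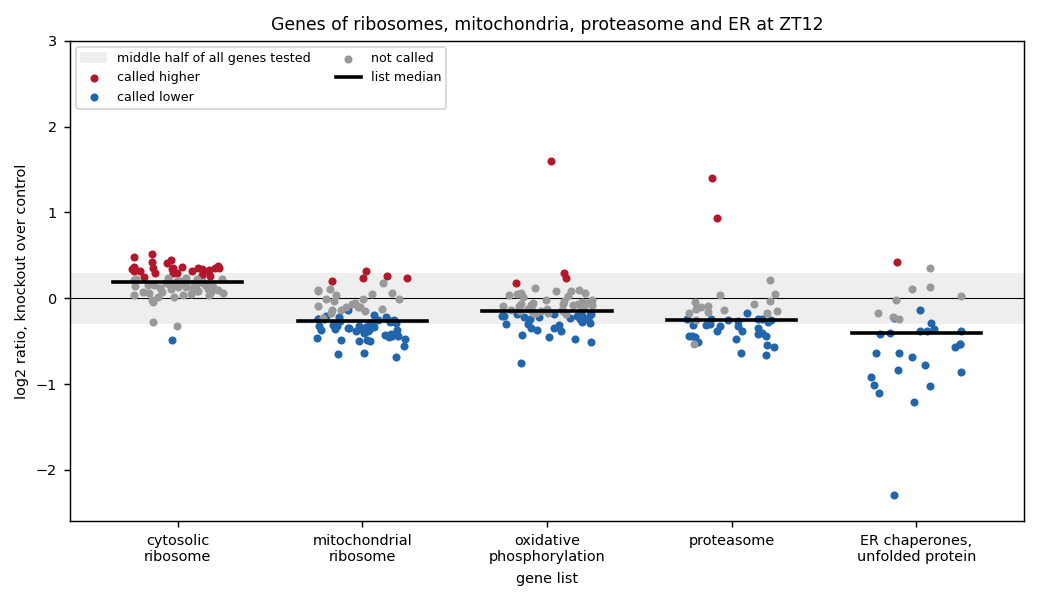
Log2 ratio of knockouts to controls at ZT12 for each gene of 5 lists of cell machinery. Each dot is a gene and the grey band is the middle 50% of all genes, -0.29 to 0.29. Cytosolic ribosomal proteins centre above 0 (median 0.19) and the endoplasmic reticulum, proteasome and mitochondrial ribosomal lists below it (medians of -0.41, -0.26 and -0.26).

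Plasma proteins of defence were mixed. Acute phase genes were higher in 10 of 30 cases and lower in 10 (median 0.04). The interleukin-1 receptor antagonist Il1rn rose by 3.66 (well above background in 3 of 6 controls), Fgl1 by 1.16 and Itih3 by 0.85, whereas Saa2 (-2.55), Saa1 (-2.46) and Saa4 (-2.33) fell. Saa1 and Saa2 are near-identical, and Saa1 overlapped between groups, from 3.41 to 7.23 in knockouts (median 4.63) and 4.63 to 9.51 in controls (median 8.22). The Saa1 call (limma adjusted p = 0.00331) was lost when only ZT12 arrays were fitted. Complement and coagulation genes fell in 22 of 40 cases and rose in 6 (median -0.23), with C6 (-2.05), C8a (-1.39), F11 (-1.19) and C4bp (-0.87) lower and the anticoagulants Thbd (1.03) and Pros1 (0.74) higher. Masp1 fell by 1.04 on its brightest probe, but 1 of its 5 called probes rose (0.32).

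Among 25 iron genes 4 rose and 10 fell (median -0.05). Hamp, the iron hormone hepcidin, rose by 0.42 (limma adjusted p = 0.0128), from a median of 8.00 to 8.48, with overlapping groups. Its inducer Bmp2, made by sinusoidal endothelium, rose by 0.71, and the transferrin receptor Tfrc (-0.87), the iron sensor Aco1 (-0.69) and the exporter Slc40a1 (-0.53) fell. Of 42 nuclear receptors and hepatocyte transcription factors 7 were higher and 12 lower (median -0.16). Esrrg (-2.79), Rxrg (-2.07), Pparg (-1.18) and Cebpa (-0.56) fell, the oestrogen receptor Esr1 rose by 1.01 and Hnf4a by 0.31, and Foxa1 (0.15) and Foxa2 (-0.26) were not called.

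Zonal genes changed in both directions on both sides of the lobule. Of 24 periportal genes 9 rose and 6 fell (median 0.20), with Hsd17b6 (2.40), Etnppl (1.69) and Cdh1 (0.72) higher and Cyp2f2 (-2.20) and Apof (-0.97) lower. Of 28 pericentral genes 5 rose and 11 fell (median -0.11). Slc1a4 (1.33) and the Wnt targets Axin2 (0.95) and Lgr5 (0.54) rose, and Slc22a3 (-1.66), Rgn (-1.34) and the glutamine synthetase Glul (-0.62) fell. Glul rested on knockout 1 (4.50 against 5.58 to 5.88 in the other knockouts), and without it the ratio was -0.45 (limma adjusted p = 0.0684).

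Cell cycle genes had a high median (0.54) but 10 of 37 were called higher and 3 lower. Ccnd1, a growth-factor-induced cyclin, rose by 1.74 (limma adjusted p = 1.48e-06), from 1.56 to 2.35 in controls (median 1.92) to 2.80 to 4.71 in knockouts (median 3.69). Foxm1 (1.47), Prc1 (1.30) and Mki67 (1.00) rose, and Rrm2 (-1.29), E2f1 (-0.81) and Tk1 (-0.53) fell. Without knockout 6 the counts were 5 higher and 3 lower (median 0.32), and without knockouts 1 and 6 they were 3 and 4 (median 0.12). Of 35 interferon-stimulated genes 3 rose, Gbp2 (1.39), Usp18 (1.21) and Ifit2 (0.86), and 3 fell, Oasl1 (-1.34), Dhx58 (-0.65) and Ifih1 (-0.61), with a median of -0.01. The Ifih1 call was lost when probes were averaged (-0.29, limma adjusted p = 0.0535). Without knockout 6 the interferon counts were 1 higher and 12 lower (median -0.34), and without knockouts 1 and 6 they were 1 and 10 (median -0.33).

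Markers of several cell types other than hepatocytes moved with genotype. In whole liver, fewer cells of a type and less RNA per cell cannot be told apart. Of 10 sinusoidal endothelial markers 9 were higher (median 0.54), and their summed level, in multiples of the array's 75th percentile, was 43.7 to 64.0 in knockouts and 33.1 to 42.3 in controls. Of 11 macrophage markers 6 were higher, led by Marco (2.28), with sums of 96.2 to 272 against 43.6 to 134. Stellate cell markers were higher in 6 of 12 cases and lower in 1 (84.7 to 102 against 48.4 to 82.7). Their mean log2 level overlapped, at 0.465 to 1.057 in knockouts and 0.075 to 0.811 in controls. All 3 tested B cell markers and 5 of 6 T and NK cell markers were higher, and Cd3e was lower (-0.32), at sums of 0.939 to 2.57 and 2.80 to 5.33 in knockouts against 0.516 to 1.38 and 2.59 to 4.04 in controls, and Cd79a and Cd8a did not pass the filter on background. Monocyte and neutrophil markers were higher in 1 and lower in 1 of 8 cases.

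Hepatocyte markers summed to 3880 to 4810 in knockouts and 5140 to 5440 in controls, without overlap. Such sums weigh the brightest genes most. The mean log2 level of the same 9 markers overlapped, at 8.122 to 8.473 in knockouts and 8.435 to 8.559 in controls. Alb (-0.35), Apob (-0.29), Serpina1c (-0.25) and Ttr (-1.02), whose promoter drives the Cre, fell, and Fgb (0.26) and Hnf4a (0.31) rose. Of 4 red cell genes the globins Hba-a1 (0.95) and Hbb-bt were higher and Alas2, a heme synthesis gene that is also on the male-biased list, lower (-2.81), with sums of 312 to 740 against 166 to 360. Pancreatic genes summed to 15.8 to 17.0 against 25.6 to 37.9. Cela1 (-1.42), Ctrb1 (-0.70) and Amy2a5 (-0.51) were lower and Cela2a (2.13) higher, and Cpa1, Pnlip and Prss2 did not pass the filter. The mean log2 level of the 4 tested genes overlapped, at 0.952 to 1.183 in knockouts and 0.879 to 1.506 in controls. Bile duct markers summed to 3.61 to 7.28 in knockouts and 4.75 to 13.2 in controls, and Spp1 (-0.81) was the member of 8 that was called lower. Fat and muscle markers summed to less than the array's 75th percentile on every array, at 0.393 to 0.515 and 0.212 to 0.302 in knockouts against 0.50 to 0.867 and 0.285 to 0.331 in controls. The part of these shifts in the ratios of the gene groups above was not tested. This holds for the rises of Lpl, Bmp2 and Vpreb3 and for the interferon and cell cycle lists.

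**Figure D5:**
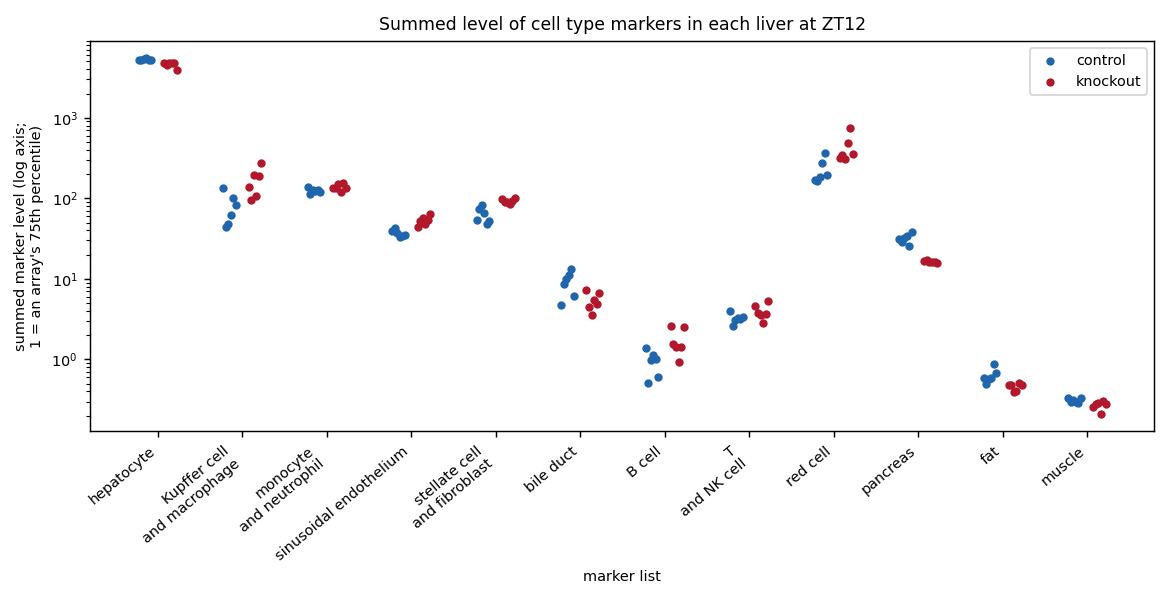
Summed level of the markers of each cell type in each liver at ZT12, on a log axis, as multiples of the array's 75th percentile. Dots are single livers. Endothelial sums are higher in every knockout (43.7 to 64.0) than in any control (33.1 to 42.3), and hepatocyte sums lower.

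The genotype effect at ZT12 was also set against that at ZT8 and ZT16. The same genes were called in the same direction at all 3 times in 4461 cases. A further 1664 genes were called at ZT12 and at neither other time, but for none of them was the difference in effect itself called. The ZT12 effect differed from the mean of the other 2 effects for 7 genes (0.0306%) at an adjusted p under 0.05, and for 2016 genes (8.81%) at an unadjusted p under 0.05. Against ZT8 alone 287 genes (1.25%) were called and against ZT16 alone 449 (1.96%), with 21 in both. These 2 differences share the ZT12 arrays. The 7 genes numbered 2 without knockout 1, 3 without knockout 2, 4 or 5 or control 1 or 5, and 4 without control 2, 4 or 6.

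Cgref1, a secreted growth regulator with EF-hand domains, had the smallest adjusted p of the 7 genes. At ZT12 its ratio was -0.16 (limma adjusted p = 0.49), with knockouts from -1.57 to -0.75 (median -1.16) and controls from -1.29 to -0.69 (median -1.03). At ZT8 and ZT16 the ratio was 1.44 and 1.02, and the difference of the ZT12 effect from their mean was -1.39 (SE 0.22, limma adjusted p = 0.00885). Aox1, an aldehyde oxidase, fell by 1.79 at ZT12, from 3.65 to 4.04 in controls (median 3.81) to 1.83 to 2.25 in knockouts (median 2.06), and by 1.15 and 0.81 at the other times (difference -0.80, SE 0.13, limma adjusted p = 0.00997). Leap2 fell by 4.77 at ZT12, 3.36 at ZT8 and 3.66 at ZT16 (difference -1.26, SE 0.21, limma adjusted p = 0.0143).

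The other members of the 7 lay close to the threshold. The LIM protein gene Crip2 rose by 1.19 at ZT12 against 0.42 and 0.70 (difference 0.63, limma adjusted p = 0.0438). The proteasome subunit Psma4 fell by 0.57 against 0.32 and 0.21 (difference -0.31, limma adjusted p = 0.0487). Pnp, the purine nucleoside phosphorylase, rose by 1.04 against 0.24 and 0.64 (difference 0.60), and Smlr1 fell by 1.06 against 0.46 and 0.85 (difference -0.41), both at a limma adjusted p of 0.04996. Just outside stood Mirt2 (difference -1.42, limma adjusted p = 0.05001). The Cgref1 call was kept in every alternative that gives this difference, the Leap2 call was lost without knockout 1 (limma adjusted p = 0.0526), and the Aox1 call was lost with the slide as a fixed block (limma adjusted p = 0.0776). Of 24 alternatives the call was lost in 20 for Psma4, 18 for Smlr1, 16 for Pnp and 15 for Crip2.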

How the data were processed

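Whole-liver RNA of 36 mice was hybridised to 1-colour Agilent mouse arrays. The deposited scanner files hold spot intensity, already background-corrected by Agilent Feature Extraction 10.10.1.1 per the submitters' processing notes, and the flags for background and outliers used here, per the file headers. A deposited table of log2 values by the authors, with its scale and centring not given in the sources used here, served as an alternative. From the intensity, log2 values minus each array's 75th percentile were computed, outlier spots were left out, and probes well above background on at least 6 of 36 arrays were kept (34771). Each gene was taken from its brightest probe, named by RefSeq's GRCm38.p6 table (28476 probes, names only, since probe positions are mm9). Of 2457 genes with several called probes, 200 had probes called in opposite directions, so the direction of such genes rests on the probe chosen. limma 3.58.1 in R 4.3.3 fitted 6 group means and wash batch with Benjamini-Hochberg adjustment over 22877 genes, 28 residual degrees of freedom. The fit was tested on simulated data. Depth does not apply to arrays, so their number limits precision.

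Named genes were the 12 largest rises and 12 largest falls without overlap, up to 3 members of each list by smallest p, genes whose ZT12 effect differed, the 6 largest bounds each way and a fixed set of insulin, lipid, clock and stress genes. Other members were named as examples after their values were seen. The members and lists were chosen with earlier results of these data known. Knockouts and controls of the same replicate number did not resemble each other in expression (correlation of deviations -0.06 to 0.09). The labels do not say whether these numbers pair the mice, and such correlations cannot decide it. Alternatives covered background, normalization, the deposited table, filters, batch, slide, replicate block, array weights, probe choice, the arrays fitted and single arrays left out. Some genes are not reported here.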

Additional observations from a re-analysis of the deposited data

Results flagged for a closer look

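At the level of single livers, 21 of 364 groups of 6 held a liver far from the other 5 by Dixon's criterion, where about 1 in 20 groups, or 18.2, stands out by chance. In knockout 6, Tango6 read 3.70 (others 4.29 to 4.59), Igfbp2 7.90 (8.41 to 8.67) and Rpl12 6.93 (7.45 to 7.76), all low. In the same liver Saa4 read 4.04 (2.85 to 2.90), Oasl1 2.88 (0.64 to 1.44) and Sfrp4 -1.19 (-3.87 to -2.87), all high. Knockout 1 was low for Hspb1 at 3.64 (4.52 to 4.94), Bmp2 at 1.88 (2.42 to 2.58) and Glul at 4.50 (5.58 to 5.88). It was high for Lpl at 3.66 (2.47 to 2.82) and Tmprss7 at -1.18 (-3.94 to -3.01). Knockout 4 was low for Lect2 at 3.85 (4.23 to 4.40) and Srebf1 at 4.62 (5.36 to 5.75) and high for Gm12718 at -6.32 (-7.38 to -7.20). Knockout 3 was low for Psme3 at 4.38 (5.05 to 5.43) and high for Nat8f6 at -6.78 (-7.52 to -7.34).

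Among controls, control 1 was high for Abcg1 at 0.34 (-0.14 to 0.04) and low for Aco1 at 4.69 (4.87 to 4.98) and Il20 at -6.97 (-6.02 to -5.74). Control 3 was low for Glud1 at 7.55 (7.62 to 7.66) and control 5 high for Tmprss7 at -6.71 (-7.31 to -7.09).

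Between times, the ZT12 effect differed from the mean of the ZT8 and ZT16 effects for 7 genes by the interaction test in limma: Cgref1 (-1.39), Leap2 (-1.26), Aox1 (-0.80), Smlr1 (-0.41), Psma4 (-0.31), Pnp (0.60) and Crip2 (0.63).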

How the results depend on the processing

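The total of 9680 called genes stayed between 8432 and 10549 over the alternatives run, of which leaving out knockouts 1 and 6 together (8432) was chosen after seeing the data. Genes called with at least 2-fold change numbered 1663, but 780 with normexp background, 909 in the authors' deposited table and 1025 with only probes above background on all 36 arrays. The share of called genes that were higher was 46.4%, and 37.0% with normexp. The 7 genes whose ZT12 effect differed from the other times numbered 20 with normexp, 4 with quantile normalization, 11 in the deposited table, 3 without a filter, 12 with all 36 arrays above background, 3 with the slide fixed, 59 with array weights, and 2 to 6 when single arrays were left out. With the replicate block, 9449 genes were called and 3 differed between times, and 0 of 6 knockouts correlated best with the control of the same number. No named gene changed sign as a called value: over all alternatives 13 ratios lost a call and 15 gained one, and 4497 stayed on the same side of the threshold. Counts of called members that moved by over 1.5 times and are not given in the report were those of the interferon list with array weights (16 against 6), the ribosomal list with array weights (58 against 29), the ATF4 list with averaged probes or only ZT12 arrays (9 against 15) and the female-biased list with all 36 arrays above background (10 against 16). The causes were not tested. Within the 3 wash batches, 162 of 165 called named genes kept their sign, as did the medians of 28 of 40 lists. Arrays limit genes near background to bounds.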

Other observations

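The SD over 6 livers was larger in knockouts than in controls for 13715 of 22877 genes, with medians of 0.23 and 0.20 log2 units. These SDs include knockouts 1 and 6 and were not adjusted for wash batch. The batches held 2, 3 and 1 knockouts and 2 controls each. Genes vary together, and a difference in spread between the groups was not tested. The 69 genes for which knockouts 1 and 6 both lay above the other knockouts also held the mitosis genes Top2a, Nuf2, Espl1 and Prc1, the replication gene Mcm5, the chemokines Cxcl9, Cxcl10 and Ccl7, the class II antigen presentation genes H2-Aa and H2-Eb1, and the fetal albumin-like gene Afp.

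Among genes changed at least 2-fold, with matches on either strand of the 250 bases before the start, the E-box CACGTG was found in 10% of 510 higher and 5.79% of 501 lower genes, against 7.74% of 13241 tested genes with a promoter in the table. TTATGTAA, of the kind bound by PAR-bZIP and related factors, was found in 0.98% of the higher and 1.80% of the lower genes, against 0.68% of those tested. The cAMP-response motif TGACGTCA was found in 3.53% and 1.40%, against 2.43%. CAAAACA was found in 5.69% and 3.79%, against 4.22%. GTAAACA was found in 3.14% and 2.40%, against 2.36%, and TCACNCCAC (N is any base) in 0.784% and 0.599%, against 1%. Some counts were small: TTATGTAA was in 5 higher and 9 lower genes and TGACGTCA in 18 and 7. These shares are descriptions with no test.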
